A study of Rattus norvegicus with 48 samples.

Results

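Txnip (ENSRNOG00000021201), Pfkfb2 (ENSRNOG00000004162) and Klf10 (ENSRNOG00000006118) are 3 of the 32883 genes counted by RNA sequencing in rat left ventricle. They were chosen by name as genes of glucose handling, after their day 11 differences between methamphetamine- and saline-treated hearts were known. The day 11 values therefore selected the genes, and they are given here as a description without a test. Tests were made on hearts collected after abstinence, whose contrasts were not used for the choice.

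The rats were Sprague Dawley rats of both sexes from a breeding colony, 8 weeks of age when divided into the groups. A daily injection under the skin for 10 days held either saline or the psychostimulant methamphetamine (5 mg/kg). Hearts were isolated in the morning, on day 11, which was 24 h after the final dose, or once 30 days without injections (abstinence) had passed, and were flushed of blood before freezing. The 8 groups are thus saline- and methamphetamine-treated females and males at each of these times, with 6 libraries in 7 of the groups and 5 in the saline-treated females at day 11 (1 further library of that group was not analysed here). All groups shared the injections, the handling and the anesthetic, and the litters were spread over the groups. The tissue holds several cell types, so that fewer cells of a type and less RNA per cell cannot be told apart.

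Txnip encodes thioredoxin-interacting protein, an arrestin-like protein that binds thioredoxin and lowers glucose uptake by moving glucose transporters off the cell surface. Its transcription is known to rise with intracellular glucose. Pfkfb2 encodes the heart form of a bifunctional enzyme that helps to set the rate of glycolysis. It makes and breaks down the fructose bisphosphate that is an activator of phosphofructokinase, not its product. Klf10 encodes a Krüppel-like zinc finger repressor, first known as an early response gene to TGF-beta, that also responds to glucose and to the circadian clock.

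The 47 libraries held between 6661581 and 11314050 counts each. Txnip had 3062 to 8311 counts per library, Pfkfb2 412 to 1318 and Klf10 104 to 322, so that Klf10 carries the largest counting error. The labelled sex was checked with 4 genes high in libraries labelled male and 2 genes high in libraries labelled female. In all 8 groups, replicate 5 went against its label. Relative to the male median, the summed level of the male genes was 85.8 to 115% in the 4 replicate 5 libraries labelled female and 0 to 2.52% in the other 19. It was 7.31 to 12.1% in the 4 replicate 5 libraries labelled male and 70.9 to 116% in the other 20. These 8 libraries were set apart. Groups are described from the other 39 libraries (replicates 1, 2, 3, 4 and 6), and values with all 47 libraries as labelled are given beside them. The time points were sequenced in separate pools, and time cannot be told apart from pool. Among males at day 11, all saline-treated rats had numbers up to 4000 in their labels and all methamphetamine-treated rats numbers above 4000, and this series of rats cannot be told apart from the treatment. Levels are in CPM, counts per 1000000 counts of the library. They are compared within a gene only. Of the markers of left ventricular muscle that were listed, 0 could be matched to an identifier, so the labelled tissue could not be checked with them.

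The promoter of Pfkfb2 is shown because this gene had the smallest unadjusted p of the 3 between methamphetamine and saline after abstinence, and because it alone of the 3 matched an entry of the RefSeq promoter table. RefSeq (build GRCr8) places the 250 bases before its start at chr13:44726972-44727221, minus strand. The sequence is printed 5′ to 3′ along the gene, and the capitals mark a FOXO motif.
Pfkfb2 promoter: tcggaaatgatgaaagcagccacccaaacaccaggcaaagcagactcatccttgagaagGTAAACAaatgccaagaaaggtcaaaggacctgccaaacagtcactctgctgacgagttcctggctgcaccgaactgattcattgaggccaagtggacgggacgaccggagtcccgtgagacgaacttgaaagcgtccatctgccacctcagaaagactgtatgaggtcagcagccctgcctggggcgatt
The window searched also held the 50 bases after the start. The FOXO motif GTAAACA, the letters bound by the forkhead factors that Foxo1 belongs to, begins at base 60 of the printed sequence and was held by 3.78% of the 33469 RefSeq promoters of the same length, on either strand. Matches to the E-box CACGTG (6.42% of promoters), the D-box TTANGTAA (2.24%), the carbohydrate response element of CACGNG and CACGNG spaced by 5 bases (0.0359%) and the glucocorticoid response element of AGAACA and TGTTCT spaced by 3 bases (0.0149%) were not present in these letters.

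At day 11, the 3 genes differed between methamphetamine and saline in opposite directions in the sexes. Txnip and Klf10 were higher with methamphetamine in females and lower in males, and Pfkfb2 was lower in females and higher in males. These are the contrasts that chose the genes. In the same fits 9.43% of 13986 genes were called in females and 6.54% of 13887 genes in males, at an adjusted p under 0.1 by edgeR.

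In saline-treated females at day 11, Txnip stood at 449, 391, 376 and 355 CPM. In methamphetamine-treated females it stood at 671, 702, 758, 752 and 431 CPM, so that 4 of 5 libraries lay above all saline libraries and replicate 6 lay within their range. The means were 393 ± 40.2 (SD, n = 4) and 663 ± 135 CPM (SD, n = 5), a log2 fold change of 0.76 with a 95% interval of 0.48 to 1.04. In saline-treated males Txnip stood at 790, 528, 793, 655 and 654 CPM, and in methamphetamine-treated males at 499, 565, 567, 491 and 505 CPM. The male ranges overlapped through replicate 2 of the saline group alone, which lay among the methamphetamine libraries. The male means were 684 ± 111 and 525 ± 37.5 CPM (SD, n = 5 each), a log2 fold change of -0.38 (-0.63 to -0.14).

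Pfkfb2 stood at 107, 108, 122 and 106 CPM in saline-treated females at day 11 and at 71.2, 73.2, 82.7, 80.7 and 105 CPM in methamphetamine-treated females. The female ranges did not overlap, although replicate 6 of the methamphetamine group, at 105 CPM, came close to the lowest saline library, at 106 CPM. The means were 110 ± 7.73 (SD, n = 4) and 82.5 ± 13.3 CPM (SD, n = 5), a log2 fold change of -0.42 (-0.62 to -0.22). In males, Pfkfb2 stood at 84.7, 92.3, 54.4, 66.8 and 88.4 CPM with saline and at 94.9, 116, 105, 116 and 80.4 CPM with methamphetamine. Of the methamphetamine-treated males, 4 of 5 lay above every saline-treated male. The male means were 77.3 ± 16.1 and 102 ± 15.2 CPM (SD, n = 5 each), a log2 fold change of 0.41 (0.13 to 0.69).

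Klf10, the least abundant of the 3 in counts, stood at 16.4, 14.9, 16.1 and 14.4 CPM in saline-treated females at day 11 and at 24.5, 19.5, 25.2, 23.0 and 15.3 CPM in methamphetamine-treated females. The fifth value, replicate 6, again lay within the saline range. The log2 fold change was 0.48 (0.20 to 0.76). In males Klf10 stood at 32.1, 16.5, 22.7, 23.1 and 20.6 CPM with saline and at 11.8, 14.1, 21.2, 13.0 and 13.5 CPM with methamphetamine, so that 4 of 5 methamphetamine libraries lay below all saline libraries. The log2 fold change in males was -0.64 (-1.03 to -0.26).

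**Figure D1:**
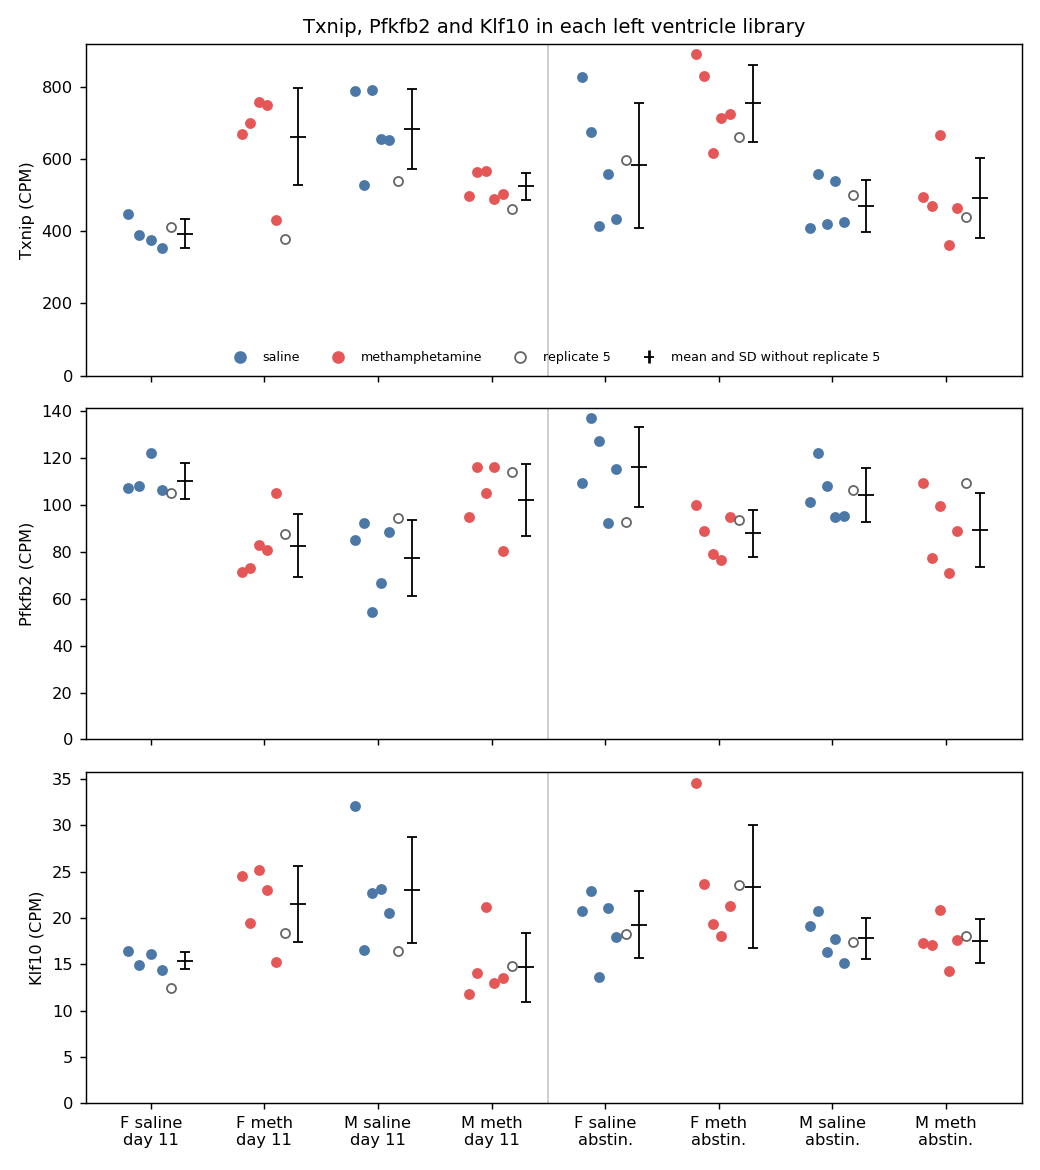
CPM of Txnip, Pfkfb2 and Klf10 (y axes, from 0) in each library of the 8 groups (x axis). Filled points are the 39 libraries other than replicate 5, open points the replicate 5 libraries, and bars the mean and SD without them. At day 11 (left) the methamphetamine points lie mostly on opposite sides of the saline points in females and males, while after abstinence (right) the ranges of the treatments overlap for each gene in each sex.

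The differences of the methamphetamine effect between the sexes at day 11, female minus male on the log2 scale, were 1.14 (0.74 to 1.54) for Txnip, -0.83 (-1.20 to -0.47) for Pfkfb2 and 1.12 (0.61 to 1.62) for Klf10. With all 47 libraries as labelled they were 0.99, -0.78 and 1.06. The male effect in them cannot be told apart from the series of rats. The intervals describe contrasts that chose the genes and are no test. The saline groups themselves stood apart at day 11. Saline-treated females had 0.574 times the Txnip level of saline-treated males, 1.43 times the Pfkfb2 level and 0.671 times the Klf10 level. These libraries belong to the contrasts that chose the genes. All of these saline-treated females had rat numbers above 4000 and all of these males numbers up to 4000, so that sex cannot be told apart from the series of rats here. In methamphetamine-treated hearts, the corresponding ratios were 1.26, 0.805 and 1.46, with ranges that overlapped for each gene. Arntl, which encodes the clock activator Bmal1, also differed between these groups, and was lower with methamphetamine in both sexes. It stood at 59.5 to 83.4 CPM in saline-treated and 1.54 to 2.50 CPM in methamphetamine-treated females, and at 14.3 to 39.5 and 4.29 to 9.81 CPM in males. Nr1d1, which encodes a clock repressor, had means of 32.8 CPM with saline and 80.1 CPM with methamphetamine in females (log2 1.29). In males its means were 94.7 and 69.4 CPM (log2 -0.45, edgeR adjusted p = 0.394, not called). Per2 and Dbp had log2 fold changes of 2.75 and 3.66 in females and of 1.14 and 0.47 in males. The study had named these clock genes from the same libraries. The part of the clock in the levels of the 3 genes was not tested.

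Replicate 6 of the methamphetamine-treated females had the lowest Txnip, the lowest Klf10 and the highest Pfkfb2 of its group. Its Arntl level, 1.54 CPM, was not like that of the saline group. Without this library the log2 fold changes in females were 0.88 for Txnip, -0.51 for Pfkfb2 and 0.58 for Klf10. The atrial muscle gene Myl4, the only one of 4 listed atrial markers with an identifier, also moved with the female groups, at 5.96 to 92.1 CPM with saline and 3 to 5.67 CPM with methamphetamine. In males at day 11 it stood at 2.24 to 4.10 and 2.25 to 3.71 CPM. Myl4 has an identifier because the study named it among the genes that differed in females at day 11. The part of atrial tissue in the female values was not tested.

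After abstinence, 0 of the 3 genes were called in females, in males or in the difference between the sexes. In females edgeR called 0 of 13610 genes (0%) at an adjusted p under 0.1, at an unadjusted p under 0.05 there were 541, and DESeq2 called 6 genes. In males 14 of 13621 genes (0.103%) were called. For the sex difference, edgeR called 0 of 14020 genes (0%), with 738 at an unadjusted p under 0.05, and DESeq2 called 26.

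Pfkfb2 had the smallest p of the 3 for methamphetamine against saline after abstinence. It stood at 109, 137, 127, 92.3 and 115 CPM in saline-treated females and at 99.8, 88.9, 78.8, 76.3 and 94.7 CPM in methamphetamine-treated females. All 5 methamphetamine libraries lay under the saline mean, and 3 of them under every saline library. The means were 116 ± 17 and 87.7 ± 10.1 CPM (SD, n = 5 each). The edgeR log2 fold change was -0.44 (-0.69 to -0.20), with an unadjusted p of 0.00207 and an adjusted p of 0.994, so that the difference did not pass the correction over all genes. The adjusted p ranged from 0.102 to 1 over the alternatives. In males Pfkfb2 stood at 101, 122, 108, 94.7 and 95 CPM with saline and at 109, 77.2, 99.4, 70.9 and 88.7 CPM with methamphetamine, with overlapping ranges. The log2 fold change in males was -0.22 (-0.46 to 0.01, edgeR adjusted p = 0.897). The difference of the effect between the sexes was -0.22 (-0.58 to 0.13, edgeR adjusted p = 0.998).

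Txnip stood at 829, 677, 415, 558 and 434 CPM in saline-treated females after abstinence and at 893, 830, 618, 716 and 725 CPM in methamphetamine-treated females. All 5 methamphetamine libraries lay above the saline mean, but the saline libraries were spread widely and 2 of them reached into the methamphetamine range. The means were 583 ± 173 and 756 ± 107 CPM (SD, n = 5 each), a log2 fold change of 0.33 (-0.11 to 0.76, edgeR adjusted p = 0.994). The highest saline library and 3 of the methamphetamine libraries came from rats with numbers up to 4000. Among the rats with higher numbers Txnip stood at 415 to 677 CPM in 4 saline libraries and at 716 and 725 CPM in 2 methamphetamine libraries. With a term for the series of rats the log2 fold change was 0.19, with an edgeR adjusted p of 0.85. In males Txnip stood at 410, 558, 421, 541 and 425 CPM with saline and at 496, 470, 668, 363 and 466 CPM with methamphetamine. These ranges lay one within the other, and the log2 fold change was 0.06 (-0.22 to 0.35, edgeR adjusted p = 0.998). The sex difference of the effect was 0.26 (-0.28 to 0.79, edgeR adjusted p = 0.998).

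Klf10 stood at 20.8, 22.9, 13.6, 21.1 and 18 CPM in saline-treated females after abstinence and at 34.6, 23.7, 19.4, 18.1 and 21.3 CPM in methamphetamine-treated females. Apart from the first methamphetamine library, the ranges overlapped over most of their width. The log2 fold change was 0.24 (-0.20 to 0.68, edgeR adjusted p = 0.994) and 0.07 with a term for the series of rats. In males Klf10 stood at 15.1 to 20.8 CPM with saline and 14.3 to 20.9 CPM with methamphetamine, a log2 fold change of -0.03 (-0.27 to 0.21, edgeR adjusted p = 0.998). The sex difference of the effect was 0.27 (-0.23 to 0.77, edgeR adjusted p = 0.998).

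Of the markers of other cells, Myl4 stood at 1.93 to 4.46 CPM with saline and 2.15 to 35.5 CPM with methamphetamine in females after abstinence (log2 2.20, edgeR adjusted p = 0.994). Ptprc, the pan-leukocyte gene that encodes CD45 and the only one of 4 listed leukocyte markers with an identifier, stood at 19.1 to 24.1 and 19.4 to 76.4 CPM (log2 0.81, edgeR adjusted p = 0.994). Neither was called by edgeR in this fit. Ptprc has an identifier because the study named it among the genes that rose with methamphetamine in females after abstinence. The study used another tool on these hearts and did call Ptprc. Its level here is therefore not independent of that choice. The part of Myl4 and Ptprc in the values of the 3 genes was not tested.

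**Figure D2:**
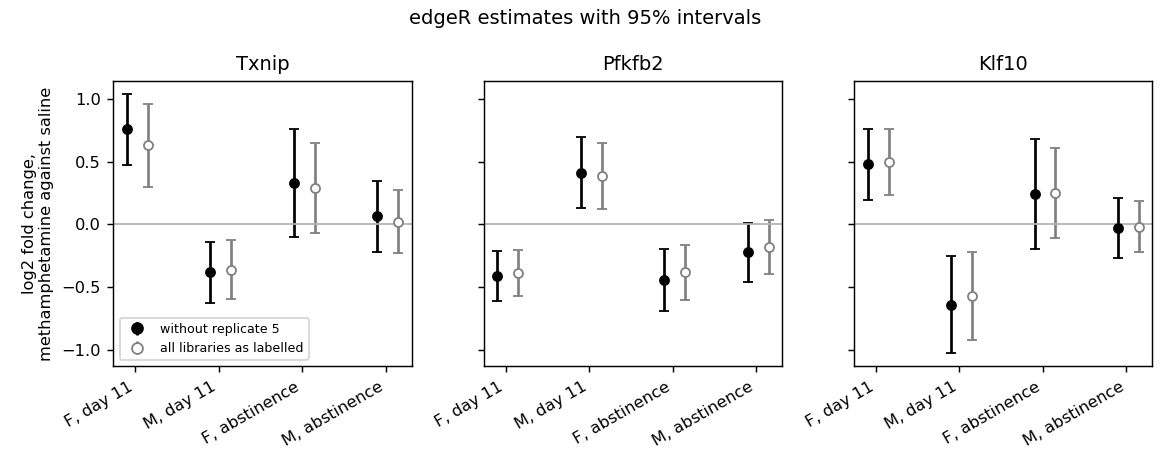
Log2 fold change of methamphetamine against saline (y axis) for Txnip, Pfkfb2 and Klf10 in each sex and at each time (x axis), with 95% intervals from edgeR. Black points leave replicate 5 out, open points hold all libraries as labelled. The day 11 estimates have opposite signs in females and males for each gene, and after abstinence the interval of Pfkfb2 in females is the only one that lies away from 0.

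Females were then compared with males after abstinence within each treatment. In saline-treated hearts, where 9.21% of 13538 genes were called, 0 of the 3 genes passed the test. The log2 fold change, female against male, was 0.33 (-0.06 to 0.71, edgeR adjusted p = 0.318) for Txnip, 0.17 (-0.04 to 0.37, 0.343) for Pfkfb2 and 0.12 (-0.18 to 0.43, 0.659) for Klf10. In methamphetamine-treated hearts, where 0.432% of 13652 genes were called, again 0 of the 3 genes passed. Txnip was 1.54 times as high in females in the means of CPM, and all 5 female libraries lay above the male mean and 4 of them above every male library. Its log2 fold change was 0.59 (0.26 to 0.93), with an unadjusted p of 0.00192 and an edgeR adjusted p of 0.161. DESeq2 gave an adjusted p of 0.0274 for the same libraries and edgeR in a single fit of all groups 0.0374, so that the call rests on the choice of the test. Of the 5 female libraries, 3 came from rats with numbers up to 4000 (618 to 893 CPM), while all 5 males had higher numbers. Among rats with numbers above 4000, Txnip stood at 716 and 725 CPM in 2 females and at 363 to 668 CPM in the 5 males. With a term for the series of rats the log2 fold change was 0.48 (edgeR adjusted p = 0.473). Pfkfb2 did not pass, at -0.05 (-0.33 to 0.23, edgeR adjusted p = 0.962), nor did Klf10 at 0.40 (0.02 to 0.79, edgeR adjusted p = 0.483).

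Over the 8 groups, the mean of Txnip ranged 1.93-fold, from 393 CPM in saline-treated females at day 11 to 756 CPM in methamphetamine-treated females after abstinence. Between these lay, in falling order, saline-treated males at day 11 (684), methamphetamine-treated females at day 11 (663), saline-treated females after abstinence (583), methamphetamine-treated males at day 11 (525), methamphetamine-treated males after abstinence (493) and saline-treated males after abstinence (471). Of the 7 neighbouring pairs in this order, only the last, saline-treated males after abstinence against saline-treated females at day 11, had a gap (78.1 CPM) larger than the larger SD of the pair (72 CPM). Pfkfb2 ranged 1.5-fold, from 77.3 CPM in saline-treated males at day 11 to 116 CPM in saline-treated females after abstinence. Its other means were 110 in saline-treated females at day 11, 104 in saline-treated males after abstinence, 102 in methamphetamine-treated males at day 11, 89.1 and 87.7 in methamphetamine-treated males and females after abstinence, and 82.5 CPM in methamphetamine-treated females at day 11. Klf10 ranged 1.59-fold, from 14.7 CPM in methamphetamine-treated males at day 11 to 23.4 CPM in methamphetamine-treated females after abstinence. Its other means were 23 in saline-treated males at day 11, 21.5 in methamphetamine-treated females at day 11, 19.3 and 17.8 in saline-treated females and males after abstinence, 17.5 in methamphetamine-treated males after abstinence and 15.4 CPM in saline-treated females at day 11. For these 2 genes no neighbours in the order differed by more than the larger SD of the pair.

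Set side by side over time, the saline groups changed in opposite directions for Txnip and Klf10. The mean after abstinence was 1.48 times the day 11 mean for Txnip in saline-treated females and 0.688 times in saline-treated males. For Klf10 the ratios were 1.25 and 0.774. Pfkfb2 was 1.05 times as high in saline-treated females and 1.35 times in saline-treated males, where the ranges of the time points did not overlap. In methamphetamine-treated hearts the ratios were 1.14 and 0.938 for Txnip, 1.06 and 0.87 for Pfkfb2 and 1.09 and 1.19 for Klf10, in females and males. No test was made, because day 11 values chose the genes and the pool was the same as the time. The rats were also older after abstinence, and age cannot be told apart from time. In saline-treated males, time also cannot be told apart from the series of rats, whose numbers were up to 4000 at day 11 and above 4000 after abstinence.

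Within the groups, Txnip and Klf10 varied together from library to library. After the mean of each group was subtracted from log2 CPM, Pearson's r was 0.734 and Spearman's rho 0.795 over 39 libraries, and r was 0.732 without the 2 libraries farthest in Txnip. It was 0.757 at day 11 (19 libraries), 0.736 after abstinence (20), 0.764 in females (19), 0.704 in males (20), 0.741 in rats with numbers above 4000 (30) and 0.683 with all 47 libraries as labelled. Among 14436 other genes that passed a low-count filter, Txnip had the highest r with Klf10, and Klf10 the second highest with Txnip. The gene ENSRNOG00000054259, which has no symbol in the sources used here, had the highest r with Txnip (0.755) and the second highest with Klf10 (0.635). Both deviations also moved with the total counts of the library, at r = -0.489 for Txnip and -0.415 for Klf10 over the same 39 libraries. The part of depth in their relation was not tested.

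For Pfkfb2 the r within groups was -0.02 with Txnip and 0.07 with Klf10 over 39 libraries, although its group means ran against theirs (r = -0.668 with each over 8 groups). The group means include the day 11 groups, whose differences chose the genes, so that this value is not independent of the choice. With Txnip the r was -0.481 at day 11, where it fell to -0.112 without the 2 libraries farthest in Txnip, and 0.356 after abstinence. With Klf10 it was -0.21 at day 11 and 0.406 after abstinence (20 libraries), and 0.463 without the 2 libraries farthest in Pfkfb2. The genes most like Pfkfb2 within groups were ENSRNOG00000032058 (r = 0.767), ENSRNOG00000000314 (0.754) and Mtss1 (0.751), a gene of actin and membrane organization. All these values are descriptions over libraries that share groups.

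**Figure D3:**
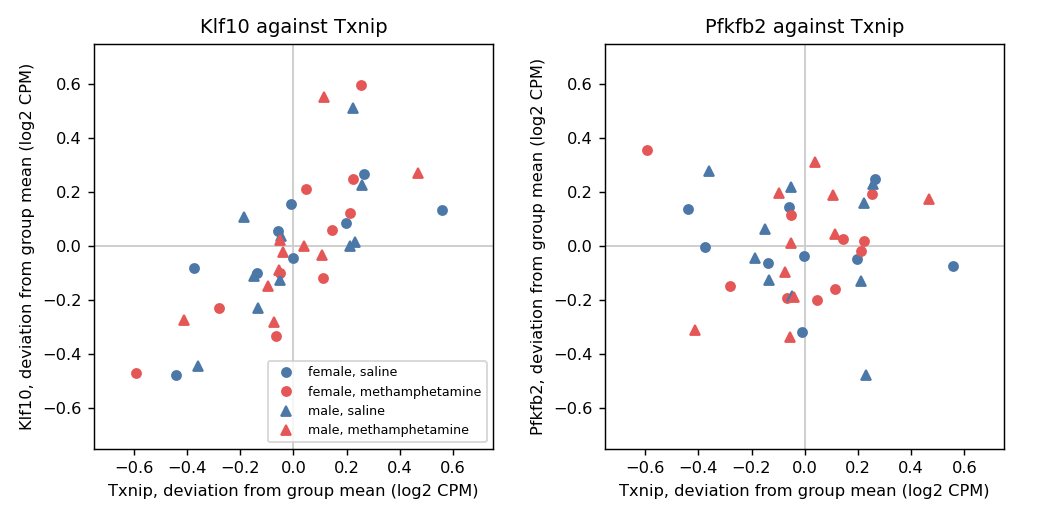
Deviation of Klf10 (left) and Pfkfb2 (right) from the group mean against that of Txnip (x axis), in log2 CPM, in the 39 libraries without replicate 5. Circles are females, triangles males, blue saline and red methamphetamine. The points for Klf10 lie along a rising line (r = 0.734), those for Pfkfb2 do not (r = -0.02).

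Of the 4 clock genes compared, Arntl had an r within groups of 0.216 with Txnip, 0.192 with Pfkfb2 and 0.381 with Klf10 over 39 libraries. The values for Dbp, Per2 and Nr1d1, whose products are clock-controlled factors and repressors, lay between -0.275 and 0.01. Over the 8 group means, r with Txnip was -0.507 for Arntl, 0.755 for Dbp, 0.415 for Per2 and 0.742 for Nr1d1. These means include the day 11 groups that chose Txnip, and the study had named the clock genes from the same libraries. A relation to the clock was not tested.

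Other genes of glucose handling and of the TGF-beta response were taken from lists of 53 and 11 genes, of which 4 and 2 had an identifier. All 6 have an identifier only because the study named them in its tables, from these same libraries. Their calls and directions at day 11 are therefore not independent evidence. The shares and medians over all genes are no background for such a choice. Lists of the Klf family (12 genes) and of immediate-early genes (9) had 0 genes with an identifier. In females at day 11, where 9.43% of 13986 genes were called, 3 of the 4 glucose handling genes rose and 1 fell, with a median log2 fold change of 0.39, against a median of 0.00 over all genes tested. Slc2a1, the basal glucose transporter GLUT1, rose from 14.2 ± 1.98 to 20.5 ± 0.894 CPM (log2 0.54, edgeR adjusted p = 0.00222), with no overlap of the ranges. Slc2a4, the insulin-responsive transporter GLUT4, rose from 494 ± 21.2 to 588 ± 11.3 CPM (log2 0.26, edgeR adjusted p = 0.00515), also without overlap. Slc2a12, a further glucose transporter, rose from 14.6 ± 2.28 to 20.9 ± 2.59 CPM (log2 0.52, edgeR adjusted p = 0.0132). Foxo1, a forkhead factor under the control of insulin signaling, fell from 33.3 ± 5.07 to 22.2 ± 2.73 CPM (log2 -0.58, edgeR adjusted p = 0.00412). These SDs are over 4 saline and 5 methamphetamine libraries.

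In males at day 11, where 6.54% of 13887 genes were called, 1 of the 4 genes rose, 0 fell and 3 did not pass the test, with a median of 0.16 against -0.02 over all genes. Slc2a12 rose from 14.1 ± 3.41 to 22.1 ± 2.87 CPM (SD, n = 5 each), a log2 fold change of 0.65 (edgeR adjusted p = 0.0394). Slc2a4 stood at 466 ± 28.7 and 535 ± 12.2 CPM without overlap of the ranges, but did not pass (log2 0.20, edgeR adjusted p = 0.104). The estimates for Slc2a4 and Slc2a12 were thus above 0 in both sexes, and the difference of the effect between the sexes passed for 0 of the 4 (edgeR adjusted p = 0.163 to 0.839), in a fit that called 0.795% of 14343 genes. For these genes, too, the male effect at day 11 cannot be told apart from the series of rats. After abstinence 0 of the 4 were called in either sex. Slc2a1 came nearest, at 0.35 in females (0.06 to 0.64, edgeR adjusted p = 0.994).

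Of the 2 TGF-beta genes with an identifier, 1 rose and 1 fell in females at day 11, in the fit that called 9.43% of the genes tested. Smad7, the inhibitory Smad, stood at 32.2 ± 3.22 CPM with saline (SD, n = 4) and 44 ± 4.48 CPM with methamphetamine (SD, n = 5), and rose by a log2 of 0.46 (edgeR adjusted p = 0.00558). Smad3, a signal transducer of the receptor, stood at 43 ± 1.81 and 28.6 ± 1.61 CPM in the same groups, and fell by 0.58 on the log2 scale (edgeR adjusted p = 5.15e-05). In males 0 of the 2 passed, with log2 fold changes of -0.01 for Smad7 and -0.07 for Smad3, and the difference between the sexes passed for Smad3 (-0.52, edgeR adjusted p = 0.0958), where 0.795% of the genes tested were called. The male effect at day 11 cannot be told apart from the series of rats, also in this difference. After abstinence 0 of the 2 were called in either sex. Smad7 had a log2 fold change of 0.34 in females (0.0208 to 0.665, edgeR adjusted p = 0.994). Their median log2 fold change was -0.06 in females and -0.04 in males at day 11, and 0.11 and 0.02 after abstinence.

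**Figure D4:**
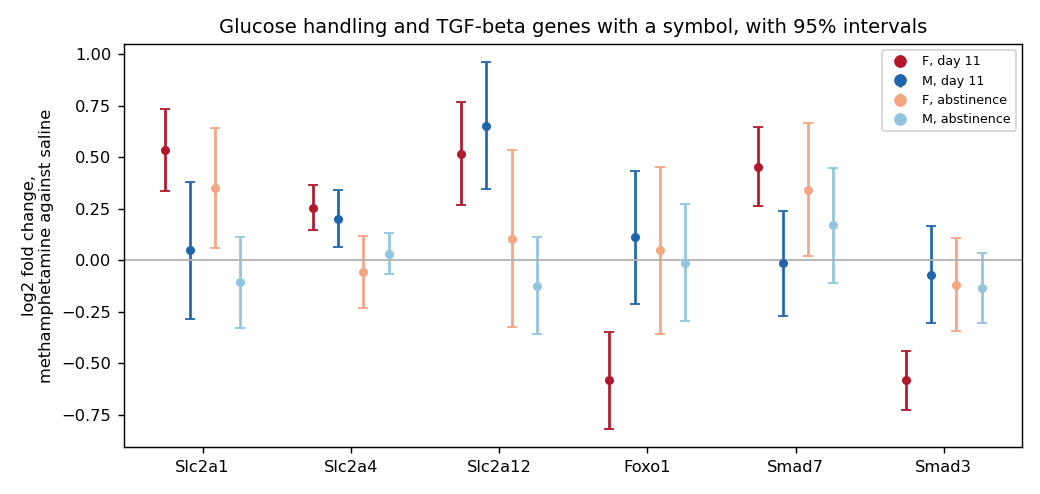
Log2 fold change of methamphetamine against saline (y axis) for 4 glucose handling genes and 2 TGF-beta genes (x axis), with 95% intervals from edgeR, in females and males at day 11 and after abstinence. In females at day 11 each interval lies away from 0, while in males at day 11 only those of Slc2a4 and Slc2a12 do.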

How the data were processed

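Left ventricular RNA was sequenced in 48 rats, of which 47 libraries were analysed here. Reads were trimmed (Trimmomatic 0.38) and aligned to Rnor_6.0 (HISAT2 2.1.0) by the authors, who deposited the raw count of each Ensembl gene. Kits were stranded. The handling of strand and of multiply aligned reads in counting is not given in the sources used here. The authors also deposited a normalized signal, which equalled the counts over a single factor per library (0.696 to 1.29) and was used only for alternatives.

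Libraries were grouped by their labels, with replicate 5 of each group set apart. Counts were fitted per comparison with edgeR 4.0.16 in R 4.3.3 (quasi-likelihood test, TMM, filterByExpr), with calls at adjusted p under 0.1 (Benjamini-Hochberg, over all genes tested). The 3 genes, the lists and the tests were chosen with earlier results of these data known. Named were these 3 genes, list genes with an identifier and the genes most like each by r of log2 CPM (prior count 2) after subtraction of group means. Animals were the replicates. Symbols were matched for 328 genes from the paper's tables, so positions are not given. A listed gene is not reported here. Intervals of 95% are those of the fit.

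Alternatives changed the libraries (all 47 as labelled, or 1 left out at a time), the tool (DESeq2 1.42.0, limma 3.58.1 voom with sample weights, or limma on log2 of the normalized signal, whose pseudocount was 1 or 0.1), the fit (edgeR over all groups at once), the scaling (RLE), the filter (none, or 10 counts in each library), the threshold (0.05) and the block (replicate number, or series of rat numbers). The fits were tested on simulated data with 200 genes changed 2-fold. All 115 pairs of libraries within groups differed beyond counting noise (chi-square divided by degrees of freedom, 2.23 to 35.5).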

Additional observations from a re-analysis of the deposited data

Results flagged for a closer look

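In 3 of the 24 sets of a gene in a group, 1 library lay far from the others, where chance gives about 1 in 20. Txnip in replicate 6 of the methamphetamine-treated females at day 11 stood at 431 CPM, against 671 to 758 CPM in the other 4 libraries, and the log2 fold change in females was 0.88 without it. Pfkfb2 in replicate 4 of the saline-treated females at day 11 stood at 122 CPM, against 106 to 108 CPM, and the log2 fold change was -0.37 without it. Klf10 in replicate 3 of the methamphetamine-treated males at day 11 stood at 21.2 CPM, against 11.8 to 14.1 CPM, and the log2 fold change in males was -0.80 without it.

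At day 11, every methamphetamine-treated female lay above the saline mean of Txnip and every methamphetamine-treated male below it (log2 fold change 0.76 in females and -0.38 in males). For Pfkfb2 every methamphetamine-treated female lay below and every methamphetamine-treated male above (-0.42 and 0.41). These differences between the sexes were not tested, because the day 11 values chose the genes.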

How the results depend on the processing

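Over all alternatives, 568 of 579 values for the 3 genes counted as unchanged. After abstinence, 355 of 366 kept their direction and side of the threshold. The day 11 values had no threshold. All 213 of them moved by less than the SD within groups and kept their direction, with all libraries as labelled included. With voom, the log2 fold change turned to -0.01 for Txnip in males after abstinence and to 0.07 for Pfkfb2 in methamphetamine-treated females against males. Txnip in that last comparison was called with DESeq2 (0.60, adjusted p = 0.0274), edgeR in a single fit (0.60, 0.0374) and voom (0.60, 0.0753). The cause was not tested. With 1 library left out, Txnip in males after abstinence ranged from -0.07 (without replicate 3 of the methamphetamine group) to 0.16. Klf10 in males after abstinence ranged from -0.10 to 0.04 (without replicate 4 of the methamphetamine group), and was 0.03 without replicate 2 of the saline group. Pfkfb2 in methamphetamine-treated females against males ranged from -0.12 to 0.04 (without male replicate 1), and was 0.01 without female replicate 4. Txnip there ranged from 0.50 to 0.73 and was called only without male replicate 3 (adjusted p = 0.0791). A term for the series of rats, chosen after the data were seen, gave 0.48 for Txnip there (edgeR adjusted p = 0.473), -0.12 for Pfkfb2 and 0.11 for Klf10, and changed no call.

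The samples were not treated as paired by replicate number. The correlation of deviations between libraries of the same number ranged from -0.531 to 0.185. Libraries of different numbers were not compared in this way, so a pairing was not tested. With the replicate number as a block, Txnip in females after abstinence stood at 0.37 and Pfkfb2 at -0.45, and no call changed.

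Counts of genes called ranged over the alternatives from 581 to 1479 in females and 0 to 1707 in males at day 11, from 0 to 163 and 0 to 77 after abstinence, and from 0 to 26 for the sex difference after abstinence. For females against males after abstinence they ranged from 314 to 3024 with saline and from 7 to 871 with methamphetamine. In males at both times, the count of 0 came only with all libraries as labelled. Klf10, with 104 to 322 counts per library, is the gene that depth limits most.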
